A study of Mus musculus with 4 samples.

Results

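The conjugating enzymes of phase II drug metabolism comprise the UDP-glucuronosyltransferases (Ugt1, Ugt2 and Ugt3 genes), the glutathione S-transferases (Gsta, Gstm, Gstp, Gstt, Gsto, Gstk and Gstz genes, with the membrane-bound Mgst genes) and the sulfotransferases (Sult genes). They were chosen by gene symbol, which gave 67 of the 21887 protein-coding genes in RefSeq's gene table for GRCm38.p6 (mm10). Each open-chromatin peak was given to the gene that held its midpoint, or otherwise to the nearest gene within 50 kb. By that rule 46 of the 67 genes had a peak in at least 1 library, or 68.7%, against 69.8% of all protein-coding genes. The genes were put together after peak calls of these libraries had been seen, so all counts below describe the members and none is a test.

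The peaks come from ATAC-seq, an assay in which the Tn5 transposase cuts open chromatin and the fragments it releases are sequenced. Organoids were grown from jejunal crypts of C57BL/6J mice and 30000 cells went into each library. The 72 h organoids were taken off CHIR99021 (which activates Wnt signalling by blocking GSK3), off valproic acid (which inhibits histone deacetylases) and off the BMP antagonist Noggin, kept epidermal growth factor and R-spondin, and had 100 ng/mL of recombinant BMP2 in their medium for 72 h. The 0 h organoids stayed in the medium with CHIR99021, valproic acid, epidermal growth factor, Noggin and R-spondin, without added BMP2. The effect of BMP2 and that of the medium change therefore cannot be told apart. There was 1 library per time point and no replicate, so differences between 72 h and 0 h carry no test, and intervals below are exact Clopper-Pearson 95% intervals of counts, which cover counting error only. The number of animals behind the organoids is not stated in the labels. Libraries of 24 h and 48 h belong to the series and were not analysed here.

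Conjugation makes small hydrophobic molecules soluble and ready for export. Ugt enzymes transfer glucuronic acid from UDP-glucuronic acid, Gst enzymes transfer glutathione to electrophiles, and Sult enzymes transfer sulfate from the activated donor PAPS. Enterocytes, the absorptive cells of the villus, carry out much of the first-pass metabolism of drugs and dietary compounds, and conjugates leave them through ABC transporters. Many of these genes lie in tandem arrays that arose by duplication, and the Ugt1 genes are alternative first exons spliced to a shared set of downstream exons.

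The 72 h library had 41343 peaks at the lenient threshold (p of 1e-05) and 25040 at the strict threshold (1e-10), against 35857 and 19910 in the 0 h library. The total was thus 1.15 times as large at 72 h, and 1.26 times as large at the strict threshold. The deposited lists hold positions but no reads or heights, so the depth of the libraries is unknown, and a peak found at 1 time only says that it was called in that library and not in the other, with no fold. The 6 epithelial marker genes had 39 peaks at 72 h and 41 at 0 h. Of the liver genes, Alb, Serpina1a and Fgb had none in either library. Apoh had 1 peak at each time, and Ttr had 2 at 72 h and 0 at 0 h. Of the leukocyte genes, Ptprc and Cd3e had none in either library. Csf1r had 1 peak at 72 h and 0 at 0 h, and Spi1 had 1 at 72 h and 2 at 0 h. Of the 10 enterocyte marker genes, 26 of 36 peaks at 72 h were absent from the 0 h list, while 4 of 15 peaks at 0 h were absent from the 72 h list. Of the 6 crypt base stem cell marker genes, 4 of 26 peaks at 72 h and 13 of 37 at 0 h were found at that time only. Goblet cell marker genes had 10 of 15 such peaks at 72 h and 1 of 6 at 0 h. Peaks at 72 h numbered 2 for Paneth, 4 for enteroendocrine, 9 for tuft, 3 for liver, 2 for immune, 7 for endothelial and 7 for fibroblast marker genes, and their counts at 0 h were 2, 2, 5, 1, 2, 4 and 7 in the same order. A larger share of enterocytes or goblet cells and more open chromatin per cell cannot be told apart in these bulk libraries, and the part of cell composition in the results on conjugation genes was not tested.

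The 67 genes together had 103 peaks at 72 h, against 63 at 0 h. The ratio was 1.63, against 1.14 over all protein-coding genes. A peak was called shared where a lenient peak of the other library overlapped it by at least 1 bp. Peaks of the same library that overlapped each other were each counted. At 72 h, 49 of the 103 peaks had no counterpart at 0 h, which is 47.6% (interval 37.6 to 57.6) against 29.0% of the 72 h peaks of all protein-coding genes. Without peaks within 1 kb of a gene boundary the share was 53.8% (41.0 to 66.3), an interval that includes the 42.3% of all genes counted in the same way. At 0 h, 11 of the 63 peaks had no counterpart at 72 h, which is 17.5% (9.05 to 29.1) and near the 19.7% of all genes. Cytochrome P450 genes, the oxidases that act before conjugation, had much the same shares, with 60 of 132 peaks at 72 h only (45.5%, 36.8 to 54.3) and 13 of 79 at 0 h only (16.5%).

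Of 59 strict peaks at 72 h, 22 had no 0 h peak even at the lenient threshold, or 37.3% (25.0 to 50.9) against 16.9% over all genes. Of 34 strict peaks at 0 h, none lacked a 72 h counterpart, with an upper bound of 10.3% that includes the 5.94% of all genes. The authors' deposited list of regions enriched at 72 h is nearly the same set by its construction (4534 regions, against 4535 strict 72 h peaks with no 0 h peak), so the presence of all 22 in it adds nothing. Their median distance to the nearest 0 h peak was 16.4 kb, 13 of the 22 were over 10 kb away, and the closest, at Gsta2, was 0.56 kb away. The 11 peaks found at 0 h only were all lenient, and their median distance to the nearest 72 h peak was 2.78 kb. The count of 0 depends on the rule: with strict lists on both sides 5 genes had a strict 0 h peak without a strict 72 h one, and with each peak given to every gene within 50 kb, 4 genes had a strict peak found at 0 h only. Over all genes these counts were 2554 and 2373, against 1016 by the rule used here.

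Counted by gene, 30 of the 46 genes with a peak had at least 1 peak found at 72 h only, which is 65.2% (49.8 to 78.6) against a background of 39.8%. Strict peaks of this kind occurred at 19 genes, or 41.3% against 18.6%. Peaks found at 0 h only occurred at 6 genes, or 13.0% against 29.6%, and strict ones at none, against 6.65%. Peaks at 72 h and none at 0 h were recorded for 12 of the 46 genes, where 7.57% of all genes with a peak had that pattern: Ugt1a10, Ugt1a9, Ugt1a5, Ugt2b36, Ugt2b5, Ugt2a3, Ugt2b38, Ugt2a1, Gstm2, Sult1c2, Sult1d1 and Sult6b2. Of these, Ugt1a10, Ugt1a9 and Ugt1a5 are nested in 1 locus, and 0 h peaks within their boundaries were given to other Ugt1 genes. Peaks at 0 h and none at 72 h, with a background of 6.95%, were recorded for Sult4a1 alone, a brain sulfotransferase, with 1 lenient peak near a gene boundary at 0 h. Shared peaks only were recorded for 13 genes, or 28.3% against 43.5% of all genes with a peak, among them Gstm1, Gstm3, Gstm4, Gstk1 and Sult1a1. More peaks at 72 h than at 0 h were counted at 30 genes (65.2%, against 37.0% of all genes with a peak), fewer at 4 (8.7%, against 24.1%) and as many at 12 (26.1%, against 38.8%). The median length of the genes with a peak was 15.8 kb, against 23.3 kb over all genes with a peak.

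**Figure D1:**
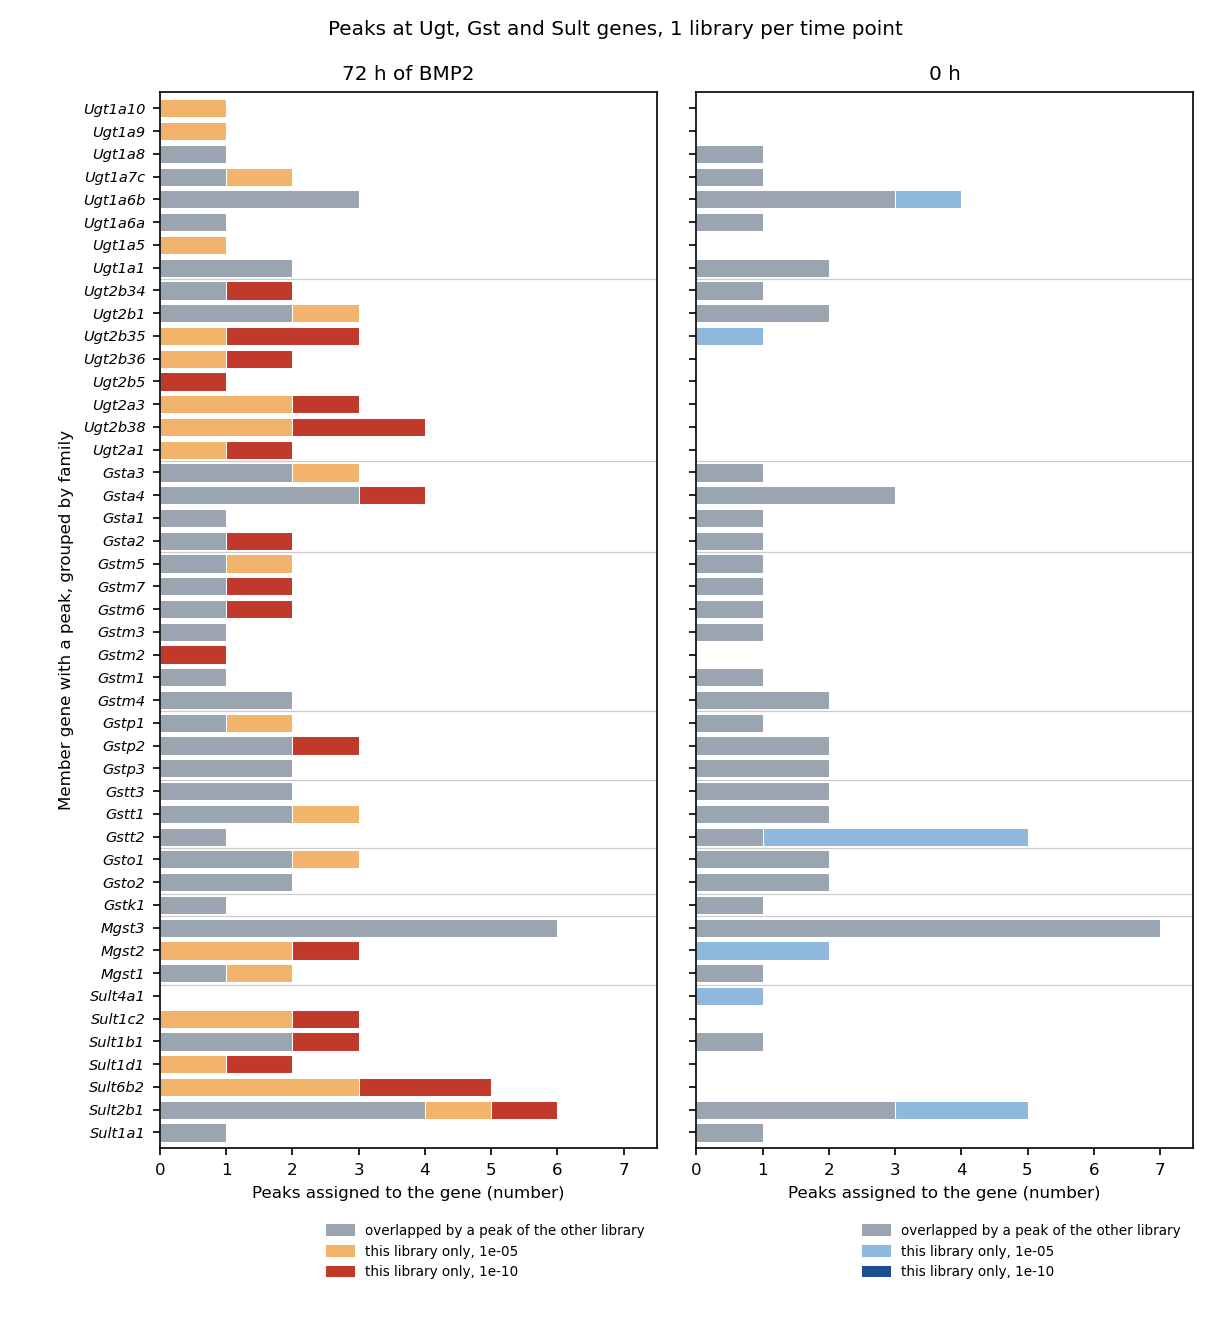
Peaks per gene in the 72 h library (left) and the 0 h library (right) for the 46 conjugation genes with a peak, divided into shared peaks, lenient (1e-05) peaks found at that time only and strict (1e-10) peaks found at that time only. The 22 strict peaks found at 1 time only all stand on the 72 h side. Ugt2a3 had 3 peaks at 72 h and 0 at 0 h, and Gstt2 had 1 at 72 h and 5 at 0 h.

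The shares by family are given with no test between families. Ugt2 genes had 17 of 20 peaks at 72 h only (85.0%, 62.1 to 96.8), and the 21 Sult genes had 13 of 20 (65.0%, 40.8 to 84.6). The Gst and Mgst genes together had 15 of 51 (29.4%, 17.5 to 43.8), an interval that includes the 29.0% of all genes, and the Ugt1 genes had 4 of 12 (33.3%, 9.92 to 65.1). Without the Ugt2 genes the share over the other members was 32 of 83 (38.6%, 28.1 to 49.9). The lower bound of that interval is below 29.0%. Neighbouring genes share their chromatin and peaks of 1 library are not independent, so these intervals are too narrow.

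**Figure D2:**
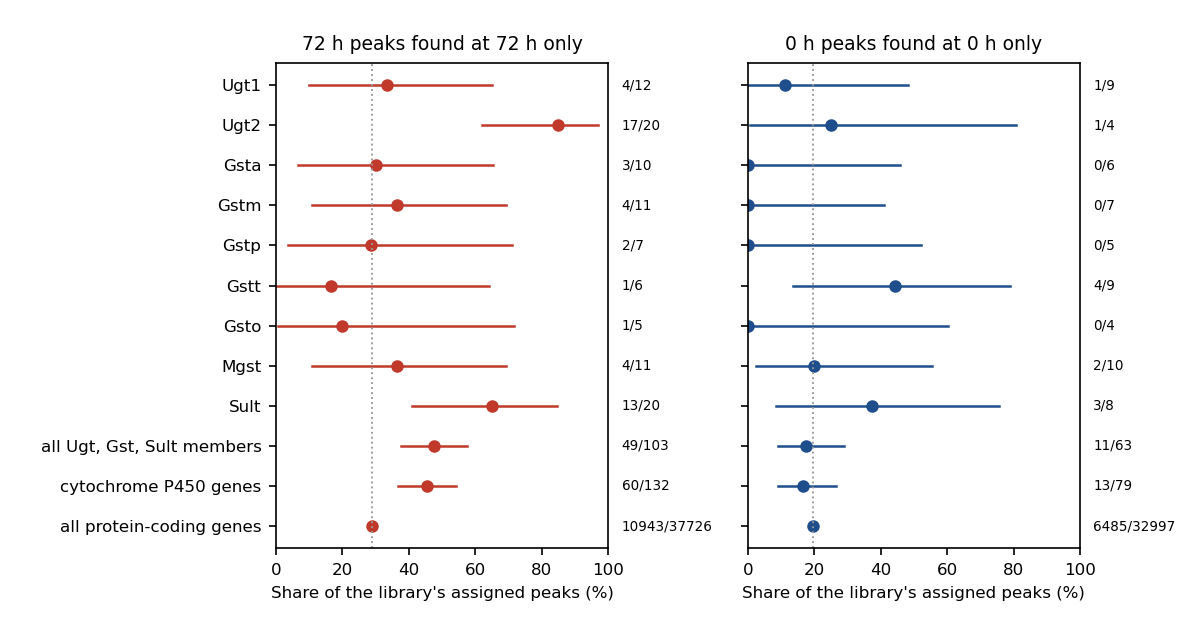
Share of each library's peaks found at that time only (x axis, percent) for 9 gene families, all members, cytochrome P450 genes and all protein-coding genes, at 72 h (left) and 0 h (right). Points are shares, lines exact 95% Clopper-Pearson intervals, fractions the counts, and the dotted line is the share over all protein-coding genes. The Ugt2 and Sult intervals at 72 h lie above the dotted line at 29.0%.

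Among the glucuronosyltransferases, the Ugt2 genes had the highest share of peaks found at 72 h only. Ugt2 enzymes glucuronidate steroids, bile acids and many drugs. The 8 Ugt2 genes with a peak had 20 peaks at 72 h, 11 of them strict, against 4 at 0 h, 1 of them strict. Each of the 8 had a peak found at 72 h only (against 39.8% of all genes with a peak), and 7 of them a strict one (against 18.6%). The exception was Ugt2b1, with 3 peaks at 72 h, 1 of them strict and 1 lenient and found at 72 h only, against 2 lenient peaks at 0 h. Ugt2b37 and Ugt2a2 had no peak.

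In the array from Ugt2b34 to Ugt2b5, which spans 251 kb of chromosome 5 and holds 5 genes, 10 peaks lay at 72 h, of which 7 were found at that time only and 4 of these were strict, against 4 peaks at 0 h. Ugt2b34 had a shared strict peak over its start at both times and a second, strict peak at chr5:86910583-86911183, 3.95 kb outside the gene, at 72 h only. Ugt2b35 had 3 peaks at 72 h, all found at that time only, of which chr5:87008512-87009112 inside the gene and chr5:87030463-87031063 were strict, and 1 lenient peak elsewhere at 0 h. Ugt2b36 had 2 peaks at 72 h, 1 of them strict and 11.2 kb from the gene (chr5:87103493-87104093), against 0 at 0 h. Ugt2b5 had 1 strict peak at 72 h, 2.94 kb from the gene (chr5:87142976-87143576), against 0 at 0 h.

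The neighbouring array runs over 351 kb from Ugt2b37 to Sult1e1 and mixes glucuronosyltransferases with sulfotransferases. It held 14 peaks at 72 h, 12 of them found at that time only and 6 of these strict. At 0 h it held 1 peak, the one over the start of Sult1b1. Ugt2a3 had 3 peaks at 72 h, against 0 at 0 h, and its strict peak at chr5:87336998-87337598 covered the transcription start and lay 198 kb from the nearest 0 h peak, the largest distance among the members. Ugt2b38 had 4 peaks at 72 h (3 sites once overlapping peaks are merged), against 0 at 0 h. All lay outside the gene, and the strict ones lay 29.4 kb and 12.7 kb from it. Ugt2a1, which is known from the olfactory epithelium, had 2 peaks at 72 h, of which chr5:87456095-87456695 was strict and lay 3.10 kb from the gene, against 0 at 0 h. Ugt2a2 overlaps Ugt2a1 almost wholly, so the assignment between them rests on their boundaries.

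**Figure D3:**
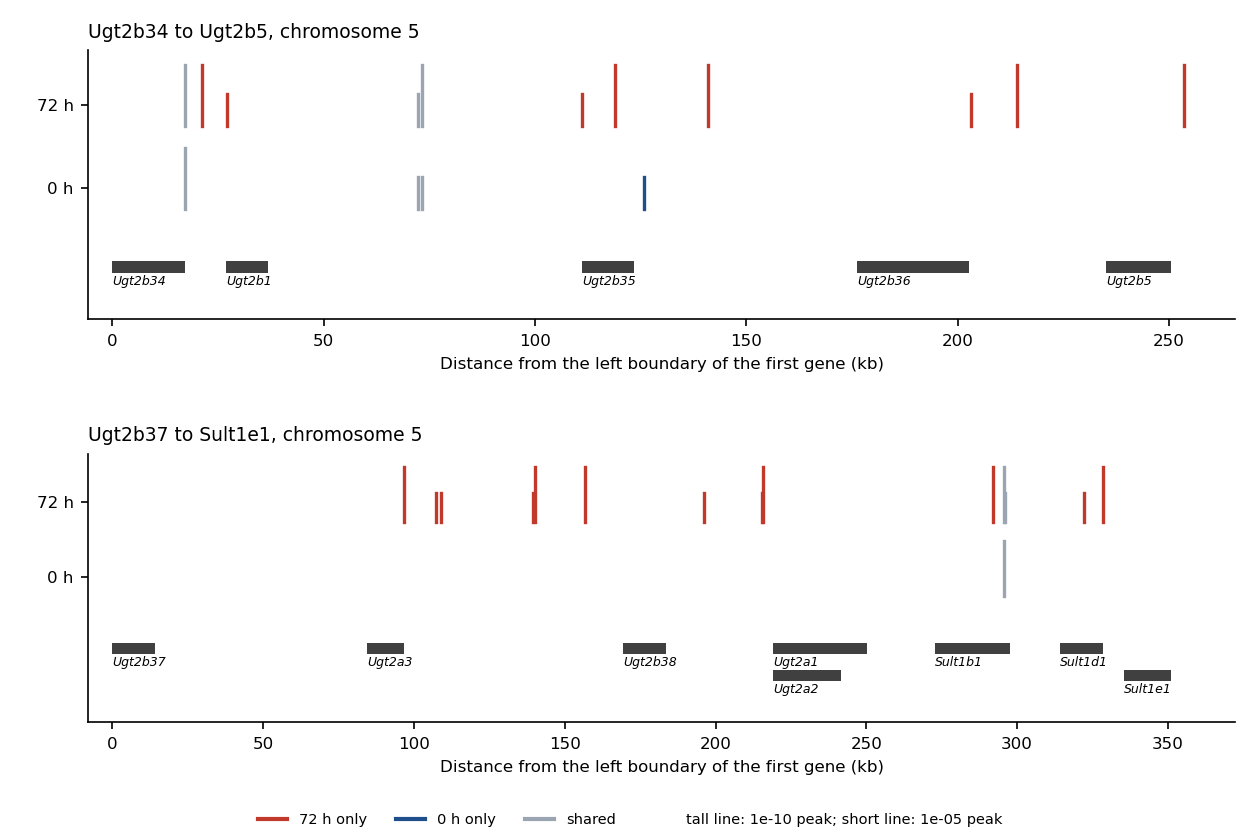
Peaks at 72 h (upper row) and 0 h (lower row) over the 2 arrays of chromosome 5 that hold the Ugt2 genes, against distance from the first gene's left boundary in kb. Tall lines are strict (1e-10) and short lines lenient (1e-05) peaks, colours give the class, and bars are genes. In the lower array 14 peaks stand at 72 h over 351 kb and 1 at 0 h, in Sult1b1.

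The promoters of the Ugt2 genes with a start under a strict peak are printed because the peak over Ugt2a3 was found at 72 h only and that over Ugt2b34 at both times. They are RefSeq windows of GRCm38.p6 from 250 bases before to 50 after the start, 5′ to 3′ on the gene's strand, here the minus strand in both: chr5:87337146-87337445 for Ugt2a3 and chr5:86906888-86907187 for Ugt2b34. Capitals mark a match to AGATAA, the GATA factor motif, which lies on the opposite strand at -34 from the start of Ugt2a3. Positions run from the start to the first printed base of a match. No searched motif matched in Ugt2b34.
Ugt2a3: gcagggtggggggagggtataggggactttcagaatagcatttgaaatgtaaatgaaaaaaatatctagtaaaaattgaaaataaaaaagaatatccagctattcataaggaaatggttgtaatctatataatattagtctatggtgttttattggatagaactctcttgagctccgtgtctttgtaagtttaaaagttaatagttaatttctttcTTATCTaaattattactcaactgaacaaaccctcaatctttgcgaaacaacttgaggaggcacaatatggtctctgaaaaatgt
Ugt2b34: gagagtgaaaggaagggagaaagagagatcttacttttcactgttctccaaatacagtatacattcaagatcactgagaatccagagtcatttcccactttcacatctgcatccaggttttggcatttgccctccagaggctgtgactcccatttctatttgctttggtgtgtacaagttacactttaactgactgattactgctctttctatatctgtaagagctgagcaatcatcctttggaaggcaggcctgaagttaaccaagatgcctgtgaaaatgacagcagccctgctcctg

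Aligned end to end, these windows were identical in 162 of 328 columns (49.4%). Guanine and cytosine made up 31.7% of the Ugt2a3 window and 43.3% of the Ugt2b34 window.

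The Ugt1 genes share their downstream exons and nearly the same right boundary, so peaks there are best read over the whole locus, 165 kb of chromosome 1 with 9 nested genes. The locus held 11 peaks at 72 h and 8 at 0 h, with 4 found at 72 h only and 1 at 0 h only, all lenient. Strict peaks numbered 3 at both times. The start of Ugt1a1, the bilirubin glucuronosyltransferase, lay under a strict peak at both times. The starts of Ugt1a9 and Ugt1a7c lay under a lenient peak at 72 h and under none at 0 h. The peak at Ugt1a7c lay 0.098 kb from a 0 h peak and was thus called beside it. The peak over the start of Ugt1a9 was given to Ugt1a10, and Ugt1a9 and Ugt1a5 were each given 1 further lenient peak at 72 h. None of the 3 genes was given a peak at 0 h, but 0 h peaks within their boundaries were given to other Ugt1 genes. Ugt1a6b was given 3 peaks at 72 h and 4 at 0 h. Ugt1a2 was given no peak, although peaks of both times lay within its boundaries. Both Ugt3 genes, Ugt3a1 and Ugt3a2, had no peak.

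Glutathione transferases had peaks at both times for the most part. Of the 25 Gst and Mgst genes 23 had a peak (92.0%, 74.0 to 99.0, against 69.8% of all protein-coding genes), 23 at 72 h and 22 at 0 h. Their peaks numbered 51 at 72 h, 34 of them strict, and 42 at 0 h, 26 of them strict. The 7 Gstm genes lie over 149 kb of chromosome 3, and 6 of them (Gstm1, Gstm3, Gstm4, Gstm5, Gstm6 and Gstm7) had a strict peak over their start at both times. The 3 strict peaks found there at 72 h only lay away from starts: chr3:107949292-107949892 inside Gstm6, chr3:107920287-107920887 at 5.75 kb outside Gstm7 and chr3:107977625-107978225 at 3.78 kb outside Gstm2. The last was the only peak of Gstm2. At the Gstm6 peak the numbering of the deposited 0 h list skips, the only such place among the 49 peaks found at 72 h only, so a 0 h peak may be missing there from the list used here. Gstm5 had 1 more lenient peak at 72 h, and Gstm4 had 2 strict peaks at both times.

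The alpha-class genes Gsta4, whose enzyme conjugates the lipid peroxidation product hydroxynonenal, and Gsta2 each had a strict peak at 72 h only. That of Gsta4, at chr9:78218903-78219503, lay 9.85 kb outside the gene and 1.25 kb from the nearest 0 h peak. That of Gsta2, at chr9:78346915-78347515, covered the start, and a shared strict peak lay 0.56 kb from it. Between these genes, strict peaks at chr9:78288988-78289588 and chr9:78299118-78299718 were also found at 72 h only, but were given to genes that are not members. Gsta4 had 4 peaks at 72 h and 3 at 0 h, and Gsta2 had 2 at 72 h and 1 at 0 h. Gsta3, on chromosome 1, had 3 peaks at 72 h, 1 of them lenient over the start and found at 72 h only, against 1 peak at 0 h. Gsta1 had 1 strict peak at both times.

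The pi-class genes occupy 24.2 kb of chromosome 19 as near copies. Gstp1 and Gstp3 had a strict peak over the start at both times. Gstp2 had 3 peaks at 72 h, all strict, against 2 at 0 h, and the peak found at 72 h only, at chr19:4042048-4042648, covered its start and lay 3.25 kb from the nearest 0 h peak. Gstp1 had a further lenient peak at 72 h, 11.1 kb outside the gene. The handling of reads that map to near-identical copies is not stated in the labels, so the split of signal between Gstp1 and Gstp2, or within the Gstm, Gsta and Ugt2 arrays, is uncertain.

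The promoters of Gstp2, Gstp1 and Gsta2 are printed to set the copy with a peak over its start at 72 h only beside the copy with a peak at both times, and to show the alpha-class start. All are RefSeq GRCm38.p6 windows on the minus strand: chr19:4042172-4042471 for Gstp2, chr19:4037863-4038162 for Gstp1 and chr9:78347096-78347395 for Gsta2. Capitals mark TGANTCA, the AP-1 motif, at -89 in Gstp2 and -74 in Gstp1, and GCGTG, the core of the xenobiotic response element bound by AHR, at -13 in Gstp1 and -7 in Gsta2.
Gstp2: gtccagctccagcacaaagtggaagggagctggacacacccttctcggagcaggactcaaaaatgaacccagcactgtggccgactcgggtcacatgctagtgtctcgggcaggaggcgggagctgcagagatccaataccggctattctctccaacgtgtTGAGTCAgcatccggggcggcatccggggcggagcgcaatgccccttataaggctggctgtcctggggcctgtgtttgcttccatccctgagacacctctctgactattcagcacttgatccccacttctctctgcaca
Gstp1: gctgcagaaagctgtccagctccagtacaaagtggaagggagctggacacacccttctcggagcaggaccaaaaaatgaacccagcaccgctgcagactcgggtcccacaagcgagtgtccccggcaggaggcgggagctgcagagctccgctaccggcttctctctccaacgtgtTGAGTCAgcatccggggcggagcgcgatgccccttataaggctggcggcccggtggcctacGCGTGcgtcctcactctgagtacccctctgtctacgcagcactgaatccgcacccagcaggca
Gsta2: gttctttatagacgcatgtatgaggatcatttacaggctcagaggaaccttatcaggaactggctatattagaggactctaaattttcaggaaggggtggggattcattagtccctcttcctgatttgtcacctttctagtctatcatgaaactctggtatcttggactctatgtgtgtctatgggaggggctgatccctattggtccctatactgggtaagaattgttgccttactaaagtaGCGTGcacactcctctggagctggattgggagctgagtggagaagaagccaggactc

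The Gstp2 and Gstp1 windows were identical in 243 of 318 aligned columns (76.4%), and the AP-1 match stood in both. The start of Gstp2 lay under a peak at 72 h only and that of Gstp1 at both times.

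**Figure D4:**
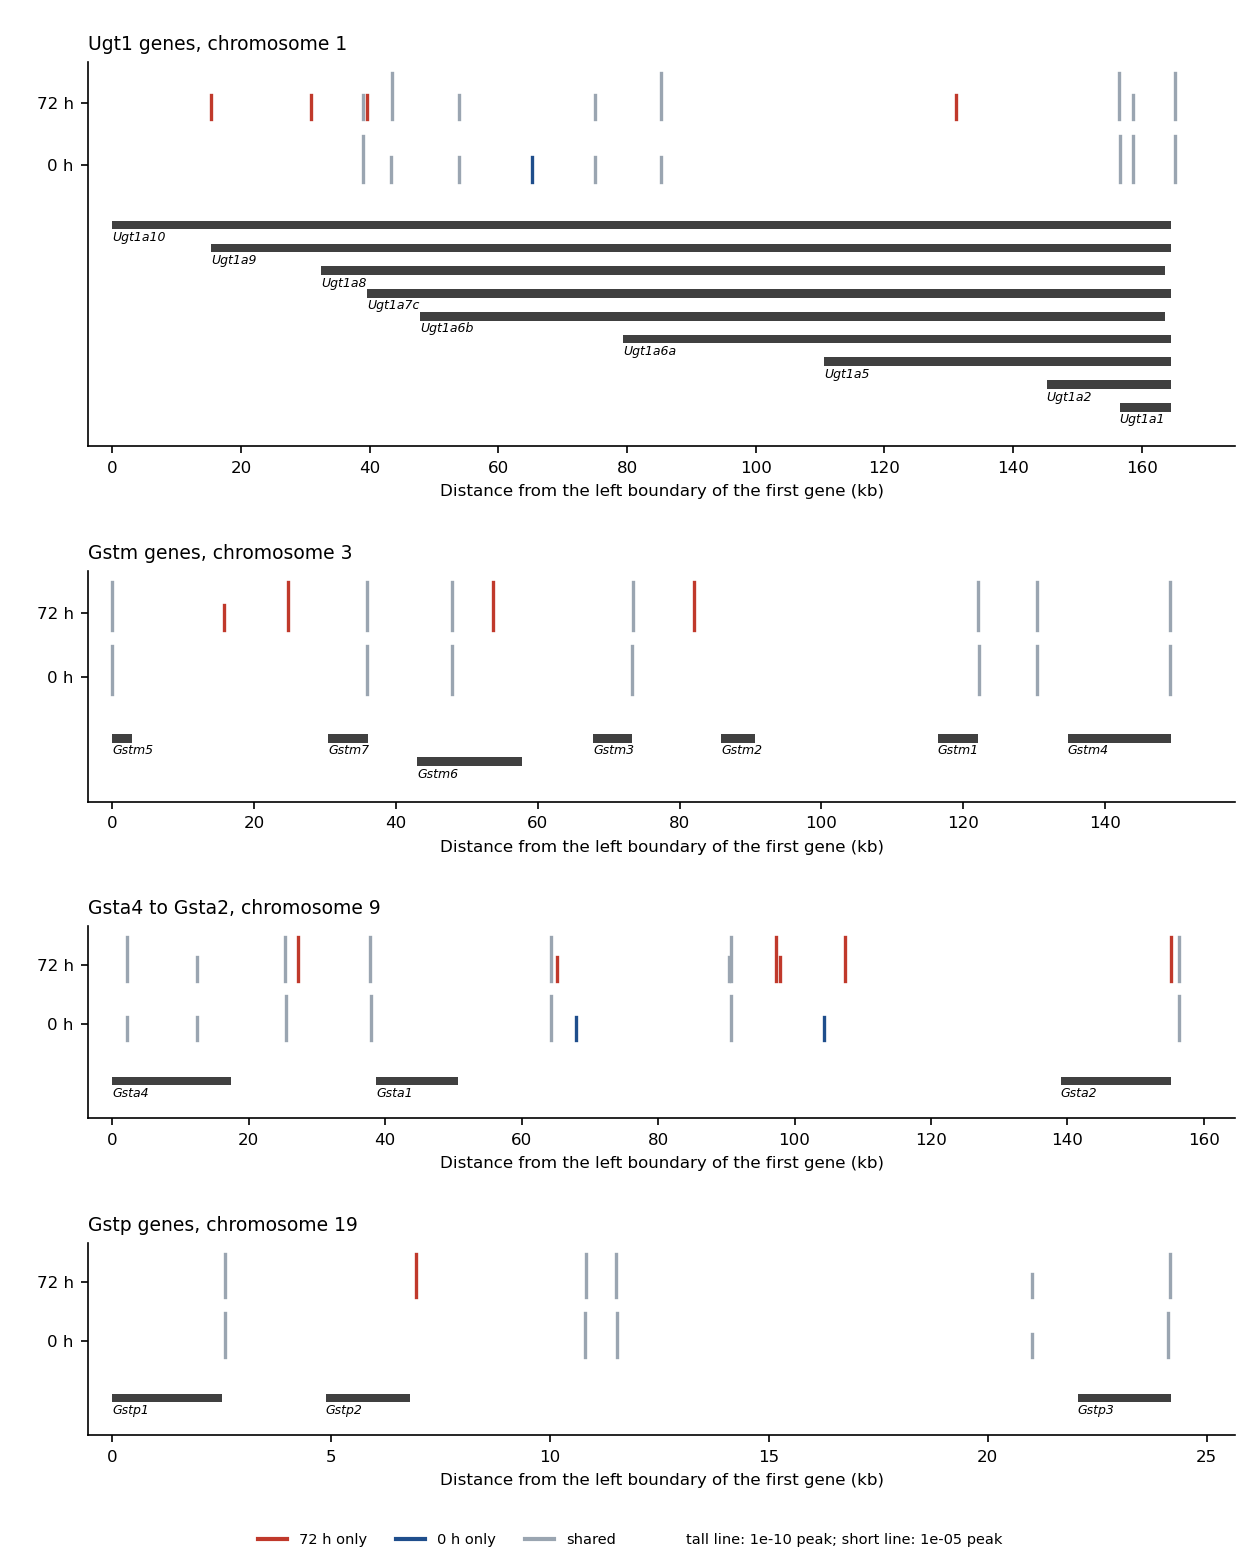
Peaks at 72 h (upper row) and 0 h (lower row) over the Ugt1 locus and the Gstm, Gsta and Gstp arrays, against distance from the first gene's left boundary in kb, with tall lines for strict (1e-10) and short lines for lenient (1e-05) peaks. Most lines are shared. Within their boundaries the Gstm and Gsta arrays each hold 3 strict peaks found at 72 h only, the Gstp array 1 and the Ugt1 locus none. The strict peak over the start of Gsta2 has its midpoint just beyond the Gsta boundary.

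Gstt2, a theta-class enzyme that acts on sulfate esters, had the most peaks found at 0 h only among the members. It had 1 peak at 72 h, strict and shared, against 5 at 0 h, all lenient, of which 4 were found at 0 h only. Among these 4, chr10:75835071-75835671 and chr10:75835508-75836108 overlapped each other. Gstt1, which acts on small halogenated compounds, had 3 peaks at 72 h and 2 at 0 h, with a lenient peak over its start at 72 h only. Gstt3 had 2 peaks at each time, and Gstt4 had none. Gsto1, an enzyme that reduces dehydroascorbate, had 3 peaks at 72 h and 2 at 0 h. Gsto2 had 2 peaks at each time, and Gstk1, the kappa-class enzyme of mitochondria and peroxisomes, had 1 shared strict peak. Gstz1, the maleylacetoacetate isomerase of tyrosine breakdown, had no assigned peak, but its start lay under a strict peak at both times that was given to its neighbour Pomt2.

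Among the membrane-bound enzymes, Mgst3 had 6 peaks at 72 h and 7 at 0 h, all shared. Mgst2, which takes part in leukotriene synthesis, had 3 peaks at 72 h and 2 at 0 h and shared none of them, with a strict one at chr3:51670983-51671583 inside the gene at 72 h. Mgst1, the microsomal enzyme of general detoxification, had 2 lenient peaks at 72 h and 1 strict peak at 0 h. Its start lay under a peak at both times, lenient at 72 h and strict at 0 h. A further strict peak found at 72 h only lay 58.8 kb from Mgst1, beyond the 50 kb window, and was not counted.

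Of the 21 sulfotransferase genes, 7 had a peak (33.3%, 14.6 to 57.0, against 69.8% of all protein-coding genes). The Sult1 genes with peaks had 9 at 72 h and 2 at 0 h, with 6 of the 9 found at 72 h only. Sult1d1, which sulfates catecholamines in the mouse, had 2 peaks at 72 h, against 0 at 0 h, of which the strict peak at chr5:87568727-87569327 covered its start. Sult1b1, an enzyme of phenols and thyroid hormones, had 3 peaks at 72 h and 1 at 0 h. The peak over its start was strict at both times, and a strict peak inside the gene at chr5:87532231-87532831 was found at 72 h only. Sult1c2 had 3 peaks at 72 h, all found at 72 h only, and none at 0 h. Of these the strict peak, at chr17:53793664-53794264, lay 35.7 kb outside the gene, and a lenient peak covered the start. Sult1a1, the main phenol sulfotransferase, had 1 shared strict peak.

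Sult1d1 and Sult1b1 are neighbours on the minus strand of chromosome 5, and their promoters are printed because the start of Sult1d1 lay under a strict peak at 72 h only and that of Sult1b1 at both times. The RefSeq GRCm38.p6 windows are chr5:87568957-87569256 for Sult1d1 and chr5:87536173-87536472 for Sult1b1. Capitals mark GCGTG, on the opposite strand at -47 in Sult1d1 and on the gene's strand at -196 in Sult1b1, TGANTCA at 8 and CAAAGTCCA, the direct repeat of HNF4A, at 25 after the start in Sult1b1. No matches overlapped.
Sult1d1: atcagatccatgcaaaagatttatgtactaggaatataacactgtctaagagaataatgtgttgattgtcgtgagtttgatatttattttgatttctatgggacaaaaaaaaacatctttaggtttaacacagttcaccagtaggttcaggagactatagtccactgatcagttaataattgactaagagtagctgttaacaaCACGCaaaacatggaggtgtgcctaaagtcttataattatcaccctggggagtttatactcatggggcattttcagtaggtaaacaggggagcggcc
Sult1b1: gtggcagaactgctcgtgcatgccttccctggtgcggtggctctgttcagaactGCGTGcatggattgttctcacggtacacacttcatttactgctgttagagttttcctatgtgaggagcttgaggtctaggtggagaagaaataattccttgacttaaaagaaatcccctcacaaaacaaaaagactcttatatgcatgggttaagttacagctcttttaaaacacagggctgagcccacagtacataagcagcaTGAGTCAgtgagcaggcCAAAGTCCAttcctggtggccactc

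These windows were identical in 151 of 342 aligned columns (44.2%).

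Sult6b2 had 5 peaks at 72 h, all found at 72 h only, and none at 0 h. Its 2 strict peaks were chr6:142793948-142794548 inside the gene and chr6:142806306-142806906 at 2.14 kb outside it. Sult2b1, which sulfates cholesterol and pregnenolone, had 6 peaks at 72 h and 5 at 0 h. It had 2 peaks found at 72 h only, of which chr7:45744370-45744970 was strict and inside the gene, and 2 lenient ones found at 0 h only. Sult2a1 to Sult2a8, the enzymes of bile acids and steroid hormones, had no peak at either time, and the 6 genes from Sult2a5 to Sult2a6 span 631 kb. Sult1c1, Sult1e1, the estrogen sulfotransferase, Sult3a1, Sult3a2, Sult5a1 and Sult6b1 also had none. That no peak was called does not show closed chromatin. The depth is unknown, and the handling of reads that map to near-identical copies is not stated.

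Transcription starts were read from the RefSeq promoter windows, which matched 59 of the 67 genes. The start lay under a 72 h peak and under no 0 h peak in 11 of the 59 (18.6%, 9.69 to 30.9), against 386 of 17492 protein-coding genes with a window (2.21%). These were Gsta2, Gsta3, Gstp2, Gstt1, Mgst2, Sult1c2, Sult1d1, Ugt1a7c, Ugt1a9, Ugt2a3 and Ugt2b35, and the peak was strict at Gsta2, Gstp2, Sult1d1 and Ugt2a3. The reverse was found in none of the 59, with an upper bound of 6.06% that includes the background of 4.02%, although an alternative start of Sult2b1 lay under a lenient peak at 0 h only. Genes without a window, whose starts were not read, include Gstt2 and Sult4a1. Each had a lenient peak found at 0 h only near a gene boundary, 0.115 kb outside Gstt2 and 0.034 kb inside Sult4a1. The count of none therefore does not cover these peaks. Of the 59, the start lay under a peak at both times in 19 (32.2%, against 48.4% of all genes) and under none in 29. Among cytochrome P450 genes, 10 of 76 starts (13.2%) lay under a peak at 72 h and not at 0 h and none the other way. The midpoints of the 4 strict peaks lay at -127 to -21 bases from the start.

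**Figure D5:**
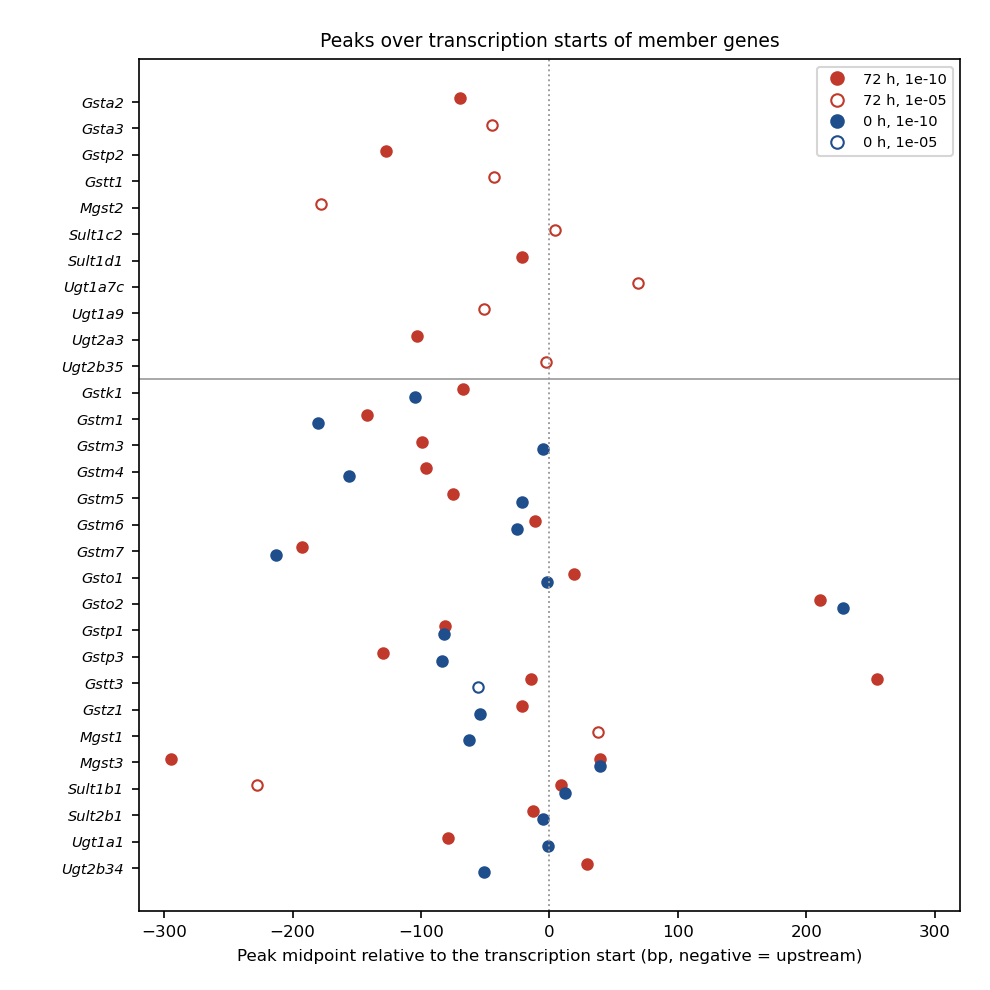
Distance in bases from the transcription start to the midpoint of the peak that covers it, for members whose start lay under a peak, with red marks for 72 h and blue for 0 h, filled for strict and open for lenient peaks, and the first covered start of each gene shown. The 11 members with a mark at 72 h and none at 0 h include Gsta2, Gstp2, Sult1d1 and Ugt2a3, whose peaks were strict.

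By place, of the 49 peaks found at 72 h only, 14 (28.6%, 16.6 to 43.3) lay within 1 kb of a gene boundary, against 8.03% of such peaks over all genes. Another 15 lay further inside genes (30.6%, against 54.9%) and 20 outside them (40.8%, against 37.0%). Of the 54 shared 72 h peaks 24 lay within 1 kb of a boundary (44.4%), near the 48.7% of all genes. Of the 48 merged sites with a peak at both times, 26 were strict at both (54.2%, against 64.4%). Another 9 were strict at 72 h and lenient at 0 h (18.8%, 8.95 to 32.6, against 13.6%) and 6 the other way round (12.5%, 4.73 to 25.2, against 8.43%), and both intervals include the shares of all genes.

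The 11 windows whose starts lay under a peak at 72 h and not at 0 h had a median of 41.0% guanine and cytosine (range 31.7 to 58.3). The 19 with a peak at both times had 54.7%, the 29 with none 39.7% and all 21263 windows 56.3%. Motifs were counted by gene in these groups: a gene counted where any of its windows matched, also one at a start under no peak. The share over all windows counts single windows, so the comparison is not like with like. Of the 9 motifs searched on both strands, TGANTCA was found in 3 of the 11 genes (Gstp2, Mgst2 and Ugt2b35), in 4 of the 19 and in 7 of the 29, against 6.99% of all windows. AGATAA was found in 4 of the 11 (Gsta3, Ugt1a9, Ugt2a3 and Ugt2b35), in 2 of the 19 and in 5 of the 29, against 9.65%. GCGTG, which is short and frequent, was found in 2 of the 11 and 7 of the 19, against 38.5%. TGACNNNGC, the antioxidant response element bound by NFE2L2, was found in 1 of the 11 (Gsta3) and 3 of the 19, against 13.0%. The HNF4A repeat CAAAGTCCA (0.451% of all windows), the CDX motif TTTATGG and the TCF motif ATCAAAG (3.22%) matched in 1 member window each, and the SMAD palindrome GTCTAGAC (0.226%) in none. A match is a run of letters and not a bound site.

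The other genes of the conjugation pathway were taken from a list with 46 genes in the table, of which 38 had a peak. They had 164 peaks at 72 h and 115 at 0 h, of which 68 (41.5%, 33.8 to 49.4) were absent from the 0 h list and 25 (21.7%) from the 72 h list, against 29.0% and 19.7% over all genes. Strict peaks found at 72 h only occurred at 19 of the 38 (50.0%, against 18.6% of all genes with a peak). The 38 genes were longer (median 40.1 kb, against 23.3 kb) and had more 72 h peaks each (median 4, against 2). Shares by gene are thus not like with like. Of their strict 72 h peaks, 33 of 99 were found at 72 h only (33.3%, 24.2 to 43.5, against 16.9% over all genes). Strict peaks found at 0 h only occurred at Abcc4 alone (2.63%, against 6.65%), which also had 1 strict peak found at 72 h only. For genes that supply cosubstrates, 20 of 46 peaks at 72 h lacked a 0 h counterpart (43.5%, 28.9 to 58.9) and 2 of 26 peaks at 0 h lacked a 72 h one (7.69%), and the interval at 72 h includes the 29.0% of all genes. Among these, strict peaks at 72 h only occurred at Gclc and Gclm, the subunits of the rate-limiting enzyme of glutathione synthesis, at Gss and Gsr, which make and reduce glutathione, at Papss2, which makes PAPS, and at Ugp2, which makes UDP-glucose. Genes of hydrolysis and reversal had 11 of 19 at 72 h (57.9%, 33.5 to 79.7), with 3 strict at Ephx2 (an epoxide hydrolase) and 2 at Ggt1 (which breaks down glutathione conjugates and had 4 peaks at 72 h and 0 at 0 h). For transporters of conjugates the shares were 12 of 36 at 72 h (33.3%, 18.6 to 51.0), near the 29.0% of all genes, and 11 of 32 at 0 h (34.4%, 18.6 to 53.2, against 19.7%). Strict peaks found at 72 h only lay at Abcg2, Abcb1a, Abcc1 and Abcc4. For regulators the shares were 24 of 58 at 72 h (41.4%, 28.6 to 55.1) and 10 of 42 at 0 h (23.8%, 12.1 to 39.5), both intervals including the shares of all genes. Strict ones at 72 h only included 4 at Ppara, 2 each at Nfe2l2 and Rxra and 1 each at Nr1i2 and Hnf4a. Of strict 72 h peaks, 7 of 18 at transporters (38.9%, 17.3 to 64.3) and 12 of 35 at regulators (34.3%, 19.1 to 52.2) were found at 72 h only, against 16.9% over all genes. For cosubstrate supply this was 8 of 29 (27.6%, 12.7 to 47.2) and for hydrolysis 5 of 12 (41.7%, 15.2 to 72.3), both intervals including 16.9%. At 0 h it was 2 of 14 at transporters and 0 of 20 at regulators, against 5.94%. The acetyltransferase Nat2 was the only other transferase with a strict peak at 72 h only.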

How the data were processed

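Per the labels' protocols, nuclei of dissociated organoids were cut with Tn5, amplified by PCR and sequenced. Per the submitters' processing notes, mm10 was the build, and MACS2 2.2.7.1, Bowtie2 2.4.1, bedtools 2.26.0, Picard 2.18.27, cutadapt 1.9.1, deepTools 3.5.4 and SAMtools 1.3.1 were used. Neither their settings nor Tn5 shift, duplicate removal and multi-mapping filters are stated there. Per library, the authors deposited peaks called at a p-value of 1e-05, peaks called at 1e-10 and a list of enriched regions. Deposited columns are peak positions (start and end coordinates) and names, with no signal; nearly all peaks span 601 bp. Peak numbers without a row were 740 at 72 h and 1427 at 0 h.

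Assignment, overlap (at least 1 bp) and intervals were computed with Python 3.11.15, pandas 2.3.3 and SciPy 1.17.1, and checked on simulated peaks. Ties went to the nearer gene boundary, then the shorter gene. Genes come from a RefSeq table of GRCm38.p6 and starts from RefSeq promoter windows; exons were not resolved. Arrays are runs of at least 3 members with gaps up to 100 kb, a rule chosen after the data were seen. Members, gene lists and motifs were chosen with earlier results of these data known. Named with values are members with a strict peak of 1 library only, members with peaks at 1 time only, and in each family the member with most sites among the rest. Some genes and a motif of the lists are not reported here.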

Additional observations from a re-analysis of the deposited data

How the results depend on the processing

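Each of 6 results (genes with a peak found at 1 time only, genes with a strict one, and the share of peaks, for each library) was recomputed under 8 alternatives, which gave 48 values, and 6 of them were classed as moved. Giving each peak to every gene within 50 kb raised the genes with a peak at 72 h only to 53 (30 as reported), those with a strict one to 30 (19), and at 0 h those with any to 23 (6) and with a strict one to 4 (0: Gsta4, Mgst2, Sult1a1 and Sult2b1), since 1 peak then counts for several genes. Over all genes the same counts rose to 11750 (6082 as reported), 6079 (2844), 9538 (4525) and 2373 (1016). Strict peaks at 0 h only were found at 1 gene (Mgst2) by the nearest transcription start, and at 5 (Gsto2, Mgst1, Mgst3, Ugt1a1 and Ugt1a8) when strict lists were compared with strict lists, where a lenient 72 h counterpart no longer counts. Over all genes these counts were 765 and 2554, in the same order. The share of 72 h peaks found at 72 h only ranged from 37.8% (23.7% over all genes) to 53.8% without peaks at gene boundaries (42.3% over all genes, inside the interval of 41.0 to 66.3), and that at 0 h from 15.4% (16.9%) to 24.3% (27.5%). Some values not classed as moved also differed. Without peaks at gene boundaries, the genes with a peak at 72 h only fell from 30 to 22 (6082 to 5609 over all genes). With strict lists on both sides, those with a strict one rose from 19 to 26 (2844 to 4587 over all genes). No paired analysis was possible because each time point has 1 library. Unknown depth, the missing peak heights and the lack of replicates limit all comparisons.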
